A study of Sus scrofa with 16 samples.

Results

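The distal and the proximal small intestine of preterm piglets given antibiotics were compared on 8 of the 16 arrays of the study, 4 of distal and 4 of proximal tissue. The arrays were chosen by the segment and treatment in their sample names, and every probe set other than the array's control probe sets was kept. The 5 treated piglets (Landrace x Large white x Duroc) had received ampicillin, gentamicin and metronidazole by mouth and into the muscle since birth, and were sampled on day 5. The 8 other arrays hold both segments of 4 untreated piglets, which had received saline. Every piglet, untreated ones included, had been delivered by caesarean section on gestation day 105 from a pair of sows, nourished through a vascular catheter with small enteral feeds, and then fed through a tube alone from day 3. The number in a sample name was read as the animal's. By that reading piglets 86, 87 and 95 gave both segments, piglet 85 gave distal tissue alone and piglet 98 proximal tissue alone. How far along the bowel the segments were cut, and which cell layers they held, was not stated in the labels.

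The small intestine divides its work along its length. The proximal part activates pancreatic enzymes, takes up sugars, fat, iron and calcium, and metabolises ingested foreign compounds. The distal part reclaims bile acids, releases glucagon-like peptides, and in newborn mammals holds enterocytes with large lysosomes that take up and degrade milk protein. Position along the gut is held in the epithelium by transcription factors, of which GATA4 is the best known mark of the proximal side.

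Of 11538 probe sets tested, 606 differed between the segments of treated piglets at an adjusted p under 0.05 in limma, a background of 5.25%. Higher in distal tissue were 364 (3.15%) and lower were 242 (2.1%), while 1966 had an unadjusted p under 0.05. Counted as genes, 276 of 4684 passed (5.89%), 156 higher (3.33%) and 120 lower (2.56%) in distal tissue. Counts of list members below are to be read beside these shares, and a count near them is no result about its list. The median difference over all genes was 0.08 on the log2 scale. All expression values below are log2 GCRMA values with a floor at 2.14, and a level of 5 was the limit below which a probe set was taken as dim. Where no array of the segment with less signal exceeded 5, the fold is given as a lower bound taken against that level. Signed differences are distal minus proximal, so that a negative value is a lower level in distal tissue. Probe sets of different genes cannot be compared in level.

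Arrays of distal tissue correlated with each other at r = 0.944 to 0.981 over the tested probe sets, those of proximal tissue at 0.878 to 0.961, and distal with proximal arrays at 0.885 to 0.928. The labels do not say more of the animals than this. The limma p-values measure the spread of arrays within the groups of the study, untreated groups included, because the main fit drew on every array. That fit treated both segments of a shared piglet as independent samples. The signal of GAPDH and actin from the 5′ end of the transcript relative to the 3′ end, a measure of RNA integrity, was -4.45 ± 0.87 in distal tissue and -3.26 ± 0.58 in proximal tissue (SD over 4 arrays each, log2 scale, p = 0.0571 in a two-sided exact permutation test). With this measure as a covariate 378 probe sets passed, 300 of them among the 606. The part of RNA integrity in any single difference was not tested beyond that fit. Without proximal array 95 the count was 353, and without distal arrays 85, 86 and 95 it was 366, 364 and 389.

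The genes that place the samples along the gut followed the labels. GATA4, the proximal transcription factor, was at 2.38, 2.28, 2.37 and 2.37 on the distal arrays of piglets 85, 86, 87 and 95, against 6.97, 5.26, 5.63 and 3.79 on the proximal arrays of piglets 86, 87, 95 and 98. All distal arrays lay near the floor and the groups did not overlap. The difference was -3.06 (SE 0.48, limma adjusted p = 0.00137), a level at least 1.33-fold lower in distal tissue. FABP6, which carries bile acids inside enterocytes of the ileum, was at 10.64, 7.97, 10.27 and 10.52 on the distal arrays, against 2.28, 2.32, 2.33 and 2.32 on the proximal arrays. It was thus at background in proximal tissue and at least 28.8-fold higher in distal tissue (7.54, SE 1.08, limma adjusted p = 0.000731). Of 12 measured transcription factors of gut position GATA4 alone passed the test. Of 3 measured genes of bile acid uptake and its nuclear receptor axis FABP6 alone passed it.

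**Figure D1:**
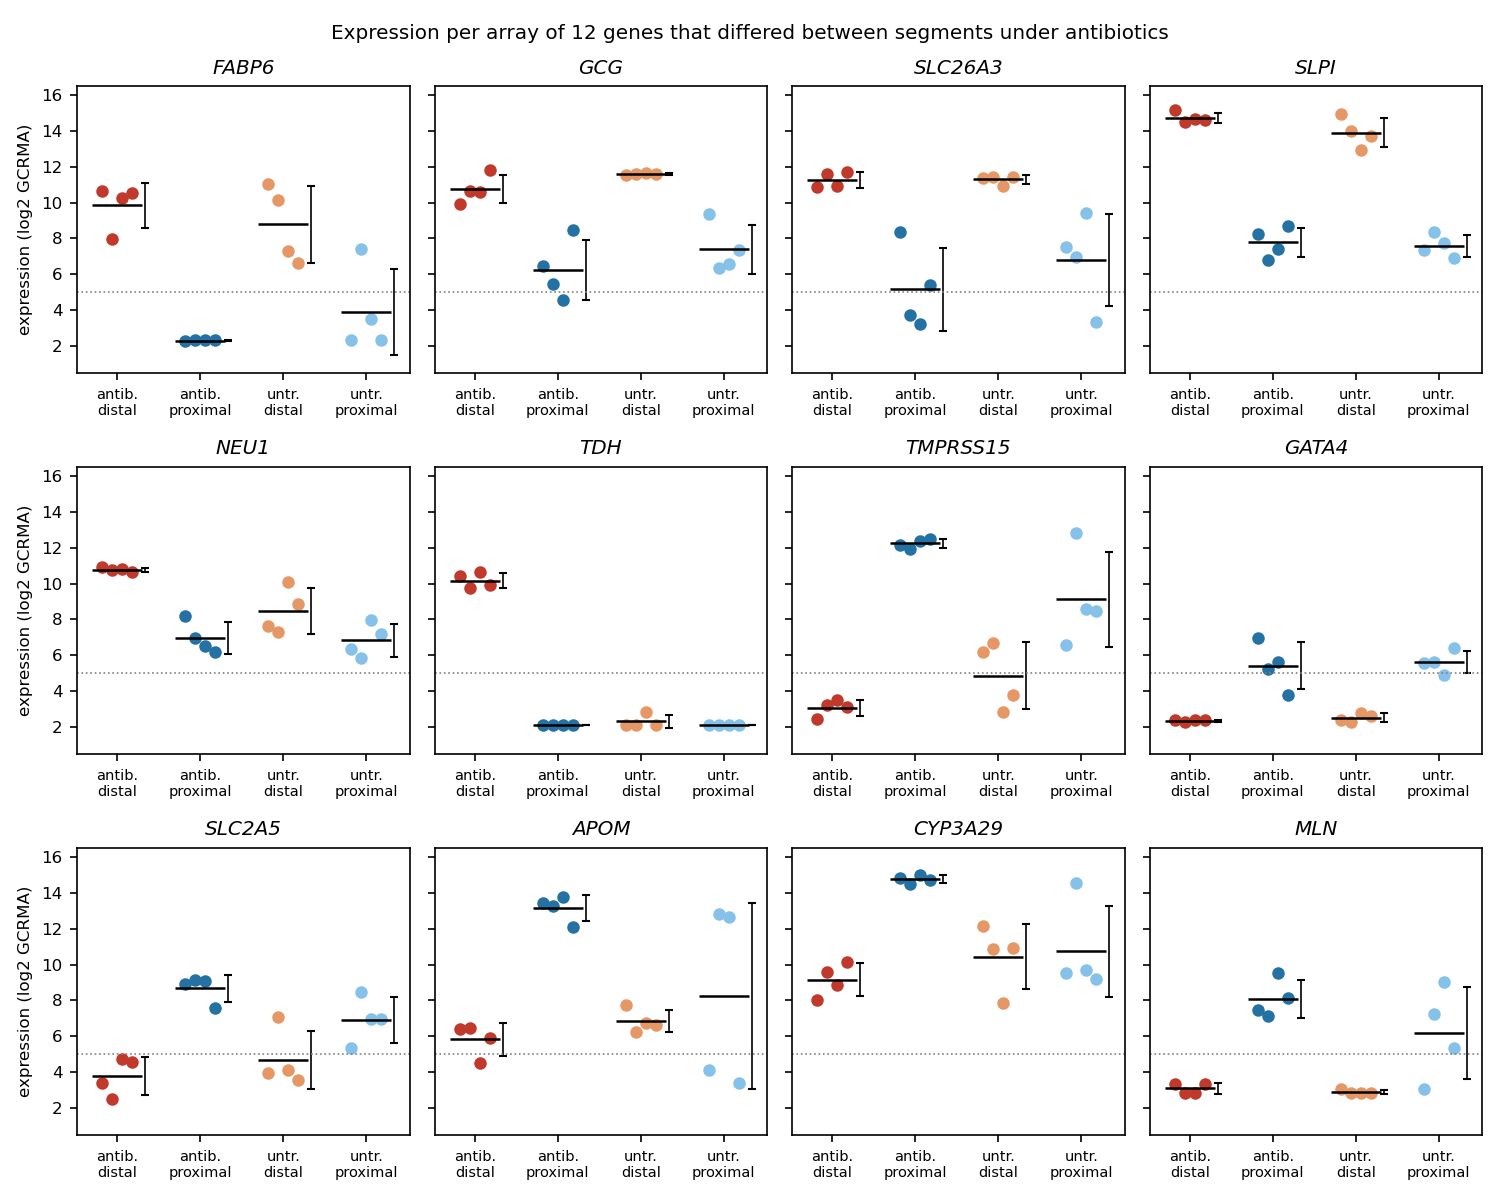
Expression of 12 genes on each array (log2 GCRMA, vertical axis), with treated distal, treated proximal, untreated distal and untreated proximal tissue from left to right. Points are arrays, the horizontal line is the group mean, the bar beside it 1 SD (n = 4) and the dotted line the level of 5. FABP6 lay between 7.97 and 10.64 in treated distal tissue and between 2.28 and 2.33 in treated proximal tissue, and TDH was high in treated distal tissue alone.

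Enteroendocrine cells are scattered hormone cells of the epithelium, and their products differ by position. GCG, the precursor of the glucagon-like peptides, was at 9.92, 10.64, 10.60 and 11.82 in distal tissue, against 6.48, 5.45, 4.55 and 8.48 in proximal tissue. The lowest distal array lay above the highest proximal one, and the difference was 22.7-fold (4.51, SE 0.73, limma adjusted p = 0.00199). MLN, the precursor of motilin, a hormone of the fasting motor cycle, was at 3.35, 2.85, 2.85 and 3.35 in distal tissue, against 7.48, 7.16, 9.54 and 8.13 in proximal tissue. It was dim on every distal array and at least 8.46-fold lower there (-4.98, SE 0.88, limma adjusted p = 0.00346). GHRL, the precursor of ghrelin, was at least 2.8-fold lower in distal tissue (-3.72, limma adjusted p = 0.032), but passed in 0 of the 8 fits that left out 1 treated array. CCK, whose product cholecystokinin empties the gall bladder, averaged 8.27 ± 0.52 in distal and 9.78 ± 0.84 in proximal tissue (SD, n = 4 each, limma adjusted p = 0.137), and passed as lower with the animal as a fixed block (-1.59, limma adjusted p = 0.048). Over the 10 measured hormone and granule genes 1 was higher and 2 were lower in distal tissue, and the median difference was -0.08. SST (somatostatin) differed by -0.11 and the granule protein gene SCG5 by -0.05, neither past the test. The fixed animal block gave GHRL an adjusted p of 0.0947.

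The largest negative difference of any gene was that of TMPRSS15, which encodes enteropeptidase, the brush border protease that activates trypsinogen. It was at 2.43, 3.25, 3.49 and 3.13 on the distal arrays, against 12.16, 11.94, 12.36 and 12.50 on the proximal arrays. The groups were far apart with little spread within either, and the level was at least 151-fold lower in distal tissue (-9.17, SE 1.02, limma adjusted p = 6.69e-05). XPNPEP2, a membrane aminopeptidase that cleaves next to proline, went the other way, with 7.32 ± 0.36 in distal and 3.46 ± 0.43 in proximal tissue (SD, n = 4 each), at least 5.0-fold higher in distal tissue (limma adjusted p = 0.000366). DPEP1, a dipeptidase that was not in the list of brush border genes, averaged 6.46 ± 0.80 in distal and 2.99 ± 0.40 in proximal tissue, at least 2.74-fold higher (limma adjusted p = 0.000682). The other 8 of 10 measured brush border genes did not pass, among them DPP4 (-0.15), ANPEP (-0.39), ENPEP (0.53), MEP1B (1.01) and the structural gene VIL1 (0.31). The enteropeptidase difference thus stood beside a brush border list whose median was 0.31.

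The genes of sugar entry at the brush border were lower in distal tissue. SLC2A5, the fructose transporter, was at 3.41, 2.50, 4.73 and 4.56 in distal tissue, against 8.93, 9.14, 9.09 and 7.58 in proximal tissue, which is at least 12.9-fold lower (-4.89, SE 0.77, limma adjusted p = 0.0015). SLC5A1, the sodium-coupled glucose transporter, was at 9.87, 9.50, 11.07 and 10.90 in distal tissue, against 14.60, 14.03, 13.33 and 13.20 in proximal tissue. It stayed well above background on every array and was 11.0-fold lower in distal tissue (-3.46, SE 0.63, limma adjusted p = 0.00416). SLC2A2, the basolateral exit for these sugars, averaged 7.97 ± 0.60 in distal and 8.27 ± 0.88 in proximal tissue (SD, n = 4 each, limma adjusted p = 0.89). PCK1, the first enzyme committed to making glucose, was lower, with a difference of -3.24 (limma adjusted p = 0.043), and so was PFKFB4, a regulator of glycolysis, with -1.89 (limma adjusted p = 0.0456). GK, the kinase of glycerol, was higher by 1.18 (limma adjusted p = 0.0414), but by 0.03 on its second probe set. In all 1 of 16 measured sugar genes was higher and 4 were lower in distal tissue, with a median of -0.71. PCK1, PFKFB4 and GK did not pass with the RNA integrity covariate (adjusted p = 0.229, 0.0635 and 0.151 in limma), and passed in 1, 1 and 0 of the 8 fits that left out a treated array. With the fixed animal block PCK1 had an adjusted p of 0.0972 and GK of 0.104.

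Genes of calcium, metal and retinoid handling that passed were also lower in distal tissue. TRPV6, the calcium channel of the brush border, averaged 2.60 ± 0.19 in distal and 5.83 ± 1.43 in proximal tissue (SD, n = 4 each), at least 1.78-fold lower (limma adjusted p = 0.00397). MT1A, a metallothionein that binds zinc and copper, averaged 4.38 ± 0.96 in distal and 8.02 ± 1.41 in proximal tissue (limma adjusted p = 0.0388), and passed in 2 of the 8 fits without a treated array. These were the 2 of 11 genes of iron, calcium and folate uptake that passed, while SLC46A1, the folate transporter, differed by -0.55. Of 5 measured genes of retinoid metabolism 3 were lower in distal tissue. These were BCO2, which cleaves carotenoids (-1.54, limma adjusted p = 0.0414), ALDH1A1, which makes retinoic acid (-1.30, limma adjusted p = 0.0337), and RDH11, a retinal reductase (-1.03, limma adjusted p = 0.0214). With the RNA integrity covariate the adjusted p was 0.0895, 0.146 and 0.112 for these 3, with the fixed animal block it was 0.26, 0.201 and 0.0778, and they passed in 2, 2 and 3 of the 8 fits without a treated array. MT1A had an adjusted p of 0.0921 with that block. TCN1, a vitamin B12 binding protein, was lower, with a difference of -1.78 (limma adjusted p = 0.0272), with adjusted p = 0.0915 in limma under the covariate and 0.187 under the block, and passed in 5 of the 8 fits. It was the 1 of 9 measured genes of cobalamin uptake and protein endocytosis to pass. Of these 9, 6 had a higher mean in distal tissue, and the median was 0.33.

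Genes that load and ship dietary fat were split. APOM, a lipocalin that rides on lipoproteins, was at 6.42, 6.47, 4.50 and 5.93 on the distal arrays, against 13.41, 13.25, 13.78 and 12.12 on the proximal arrays, a 159-fold lower level in distal tissue (-7.31, SE 1.66, limma adjusted p = 0.0163). AMBP, another lipocalin gene that also encodes the protease inhibitor bikunin, was at 3.20, 3.20, 2.51 and 3.20 in distal tissue, against 9.33, 8.66, 10.64 and 8.27 in proximal tissue. It was dim on every distal array and at least 18.7-fold lower there (-6.20, SE 1.27, limma adjusted p = 0.00874). APOA2, an apolipoprotein of HDL, averaged 11.51 ± 0.52 in distal and 15.54 ± 0.15 in proximal tissue (SD, n = 4 each), 16.4-fold lower (limma adjusted p = 0.0151). APOA4, made by enterocytes during fat absorption, averaged 9.67 ± 0.70 in distal and 12.68 ± 0.51 in proximal tissue, 8.05-fold lower (limma adjusted p = 0.00304). DGAT2, which makes triglyceride, was lower, with a difference of -3.13 (limma adjusted p = 0.0241), and CIDEB, a lipid droplet protein gene, with -2.07 (limma adjusted p = 0.0126).

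APOE and APOC2, which lie in one cluster of the pig genome with 1 other protein-coding gene between them (Sscrofa11.1, used here for gene order), were higher in distal tissue. APOE, the ligand by which lipoprotein remnants are cleared, was at 10.83, 10.14, 10.36 and 10.65 in distal tissue, against 5.73, 6.07, 5.18 and 4.65 in proximal tissue. The groups were well apart and the difference was 33.9-fold (5.08, SE 0.69, limma adjusted p = 0.000401). APOC2, the activator of lipoprotein lipase, was at 15.43, 15.16, 15.20 and 15.44 in distal tissue, against 10.74, 10.87, 11.87 and 9.83 in proximal tissue, 22.2-fold higher (4.48, SE 1.07, limma adjusted p = 0.0229). APOB, the core protein of the chylomicron, averaged 15.61 ± 0.14 in distal and 14.94 ± 0.53 in proximal tissue (SD, n = 4 each), and MTTP, which loads it with lipid, 12.79 ± 0.15 and 13.44 ± 0.43 in the same order. Neither passed (limma adjusted p = 0.321 and 0.204), nor did APOA1 (-0.23), FABP1 (-1.27) or FABP2 (-0.99), the fatty acid binding proteins of enterocytes. The genes for APOA1 and APOA4 are also near neighbours, with 1 protein-coding gene between them, yet APOA1 differed by less than its test could show while APOA4 was lower.

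Of the 28 measured genes of lipid absorption 2 were higher and 9 lower in distal tissue, and the median was -0.62. Under the RNA integrity covariate 1 was higher and 3 lower, with no filter on dim probe sets 1 was higher and 2 lower, and between 3 (without proximal array 95) and 7 were lower when 1 treated array was left out. Under that covariate the adjusted p in limma was 0.0744 for APOM, 0.0539 for APOA2, 0.0821 for APOC2, 0.0943 for DGAT2 and 0.115 for CIDEB. The fixed animal block gave 0.0574 for APOM and 0.0656 for APOA2. APOM passed in 6, APOA2 in 7, APOC2 in 3, DGAT2 in 2 and CIDEB in 7 of the 8 fits that left out a treated array. Beyond absorption, ELOVL6, which lengthens fatty acids, was lower, with a difference of -3.93 (SE 0.58, limma adjusted p = 0.000916), and both of its other probe sets were lower too, at -2.98 and -2.74. ACAA2, a thiolase of mitochondrial fatty acid oxidation, was lower, with a difference of -3.08 (limma adjusted p = 0.000948), the 1 gene of 20 in that list to pass. TM7SF2, an enzyme of cholesterol synthesis, was lower, with a difference of -2.12 (limma adjusted p = 0.0118), the 1 of 11 in its list.

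Enzymes that handle foreign compounds were the list with the most genes lower in distal tissue, though a larger share of the smaller lipid, retinoid and neutrophil lists was lower. Of 35 measured members 10 were lower and 0 were higher in distal tissue, 29 had a lower mean there, and the median was -0.85. At an unadjusted p under 0.05 in limma 16 were lower and 1 was higher. CYP2C49, a cytochrome P450 of the pig, was at 5.45, 2.44, 2.71 and 8.18 in distal tissue, against 11.80, 11.59, 13.50 and 12.19 in proximal tissue. The distal arrays were widely spread but all lay below the proximal ones, and the difference was 191-fold (-7.58, SE 1.41, limma adjusted p = 0.00483). CYP3A29, a P450 of the family that oxidises many drugs, was at 8.03, 9.58, 8.88 and 10.13 in distal tissue, against 14.85, 14.48, 14.97 and 14.74 in proximal tissue, 48.7-fold lower (-5.61, SE 1.02, limma adjusted p = 0.00412). EPHX1, the microsomal epoxide hydrolase, was at 3.15, 3.22, 2.31 and 3.15 in distal tissue, against 7.64, 7.95, 8.06 and 7.54 in proximal tissue. Both groups were tight, and the level was at least 6.95-fold lower in distal tissue (-4.84, SE 0.35, limma adjusted p = 4.81e-07). CYP2C32, which was not in the list, was at the floor of 2.14 on all distal arrays and at 7.99, 4.09, 9.11 and 7.70 on the proximal ones, at least 4.67-fold lower (limma adjusted p = 0.00224). CYP27A1, the sterol 27-hydroxylase, was at least 3.97-fold lower (limma adjusted p = 0.00497). GSTO1, a glutathione transferase, was 4.71-fold lower (limma adjusted p = 0.0011).

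The P450 genes CYP2C32, CYP2C42 and CYP2C49 are near neighbours and close copies, as are the CYP3A genes, so the probe sets may share signal and are not independent of each other. Members that did not pass included GSTA1 (-1.73), GSTK1 (-1.64, limma adjusted p = 0.0686, but 0.0273 with the random and 0.00902 with the fixed animal block), the drug exporter genes ABCB1 (-0.39) and ABCG2 (-0.79), and the nuclear receptor gene NR1I2 (-1.62). SULT1E1, an estrogen sulfotransferase gene, had the highest difference of the list, 2.85, and did not pass (limma adjusted p = 0.166). Of the 10, 5 passed under the RNA integrity covariate, 7 with the fixed animal block, and between 8 and 10 when a treated array was left out.

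**Figure D2:**
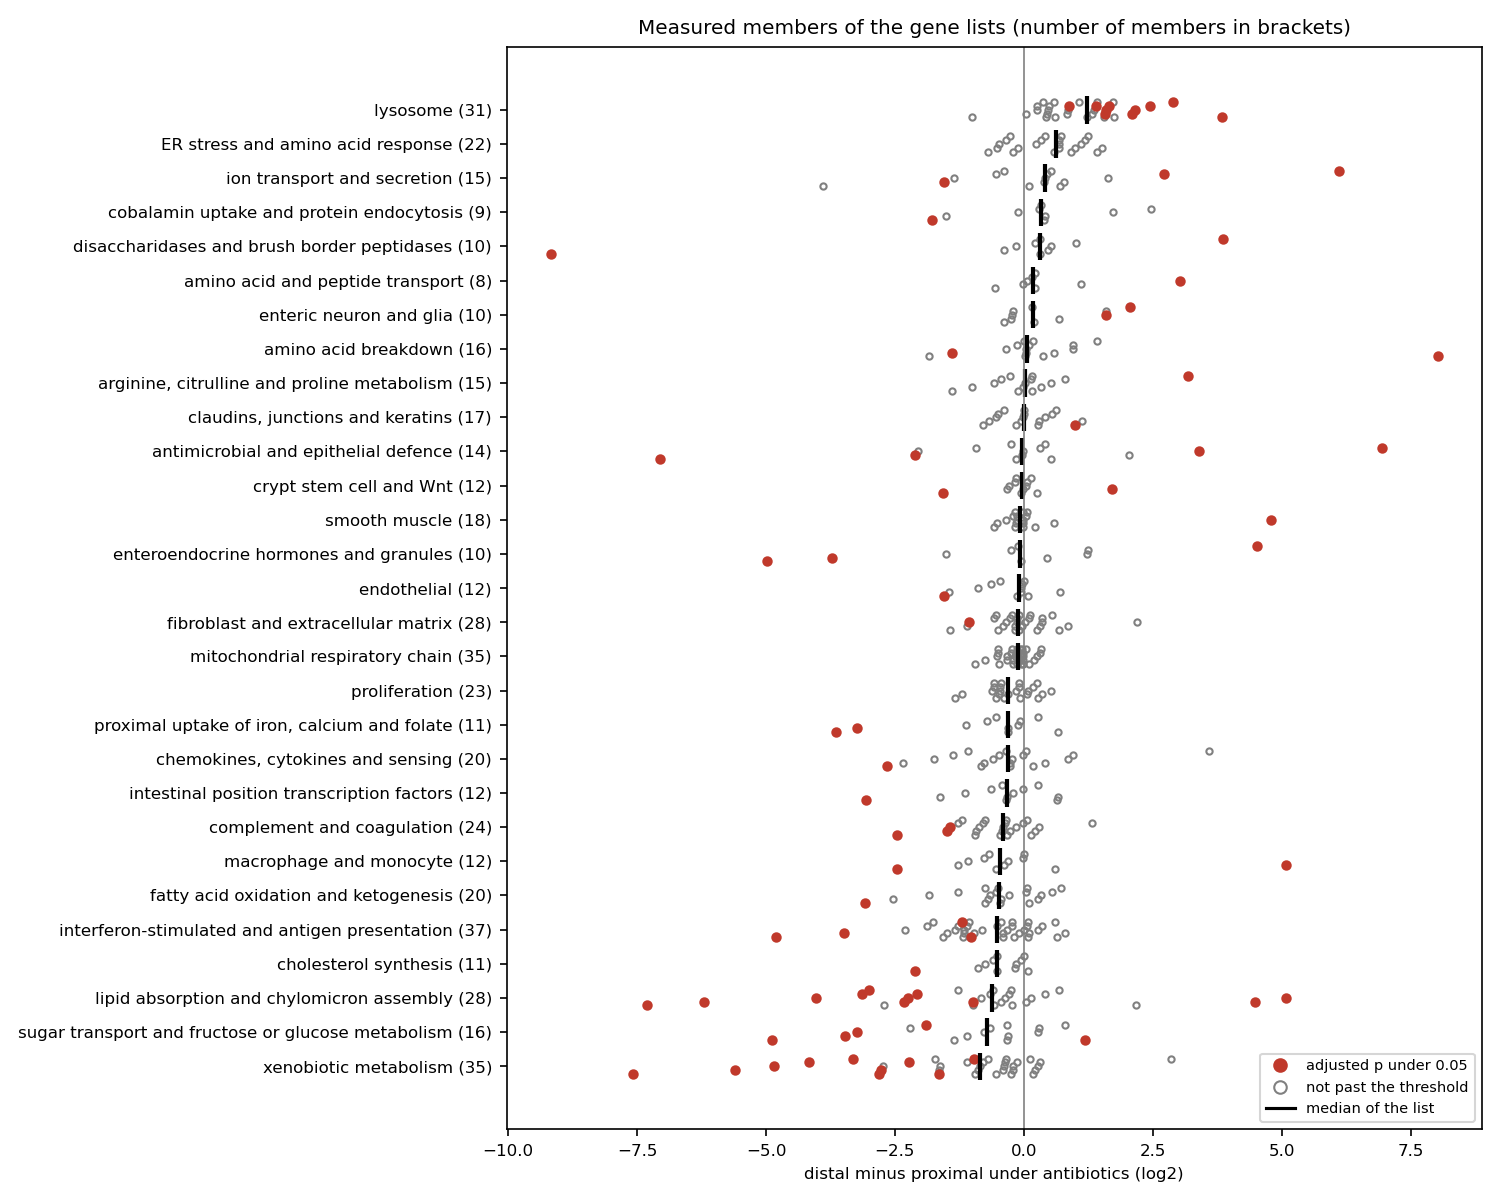
Difference between distal and proximal tissue of treated piglets (log2, horizontal axis) for each measured gene of the lists with at least 8 measured members, the number in brackets. Filled points passed an adjusted p of 0.05, open points did not, and the black bar is the median of the list. The lysosome list had the highest median, 1.22, and xenobiotic metabolism the lowest, -0.85.

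Genes of the lysosome, the organelle that degrades engulfed material, were higher in distal tissue. Of 31 measured members 30 had a higher mean there, 10 passed as higher, 0 as lower, and the median was 1.22. In untreated piglets the median of the list was 0.89 and 0 members passed. The segment difference changed with treatment for 0 members. At an unadjusted p under 0.05 in limma 22 were higher and 0 lower. NEU1, the lysosomal sialidase, was at 10.92, 10.75, 10.80 and 10.66 on the distal arrays, against 8.20, 6.95, 6.51 and 6.16 on the proximal arrays, 14.2-fold higher (3.83, SE 0.58, limma adjusted p = 0.00108). The distal values were almost identical and all lay above the proximal ones. GUSB, which removes glucuronic acid, was at 13.56, 13.32, 13.19 and 14.11 in distal tissue, against 11.53, 10.18, 11.00 and 9.96 in proximal tissue, 7.34-fold higher (2.88, SE 0.54, limma adjusted p = 0.00506). CTSH, a cathepsin that trims proteins from their ends, averaged 14.51 ± 0.22 in distal and 12.36 ± 0.38 in proximal tissue (SD, n = 4 each), 4.43-fold higher (limma adjusted p = 0.00253). GLB1, the lysosomal beta-galactosidase, was 2.99-fold higher (limma adjusted p = 0.0116), and LAMP2, a structural membrane protein gene, 1.85-fold (limma adjusted p = 0.0047). The other 3 probe sets of LAMP2 were higher by 0.64 to 0.74 and did not pass.

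The others that passed were PSAP, whose product activates sphingolipid hydrolases (2.44), the fucosidase gene FUCA1 (2.1), the cholesterol exporter gene NPC1 (1.64), the hexosaminidase gene HEXA (1.59) and SCARB2, which carries a lipid hydrolase to the lysosome (1.39). Each of these 5 was chosen after its values were seen. ACP5 was the 1 member with a lower mean in distal tissue (-1.0, not past the test), and its product, an acid phosphatase, is a marker of osteoclasts and macrophages. The summed signal of the list was 194000 to 254000 on the distal arrays and 87300 to 124000 on the proximal arrays, without overlap. In bulk tissue fewer cells of a type and less RNA per cell cannot be told apart. Of 32 listed macrophage genes 12 were measured, of which 1 was higher (APOE) and 1 lower (C1QC), with a median of -0.47. Their summed signal was 8910 to 21900 in distal and 8900 to 18400 in proximal tissue, and the 2 ranges overlapped. The part of macrophages or of any other cell type in the lysosomal difference was not tested. Of the 10 lysosomal genes that passed, 6 did so with the RNA integrity covariate, 5 with the fixed animal block and 5 with no filter on dim probe sets. Over the animals with both segments 4 passed, and between 5 (without distal array 85) and 8 when a treated array was left out. HEXA, NPC1, FUCA1, SCARB2 and PSAP passed in 0, 4, 1, 4 and 7 of those 8 fits. The covariate gave HEXA, NPC1, FUCA1 and SCARB2 an adjusted p of 0.21, 0.14, 0.057 and 0.058 in limma, and the block gave them 0.107, 0.0558, 0.158 and 0.0655 and LAMP2 0.0803. The second probe set of SCARB2 differed by 0.37 and that of FUCA1 by 2.01, neither past the test.

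**Figure D3:**
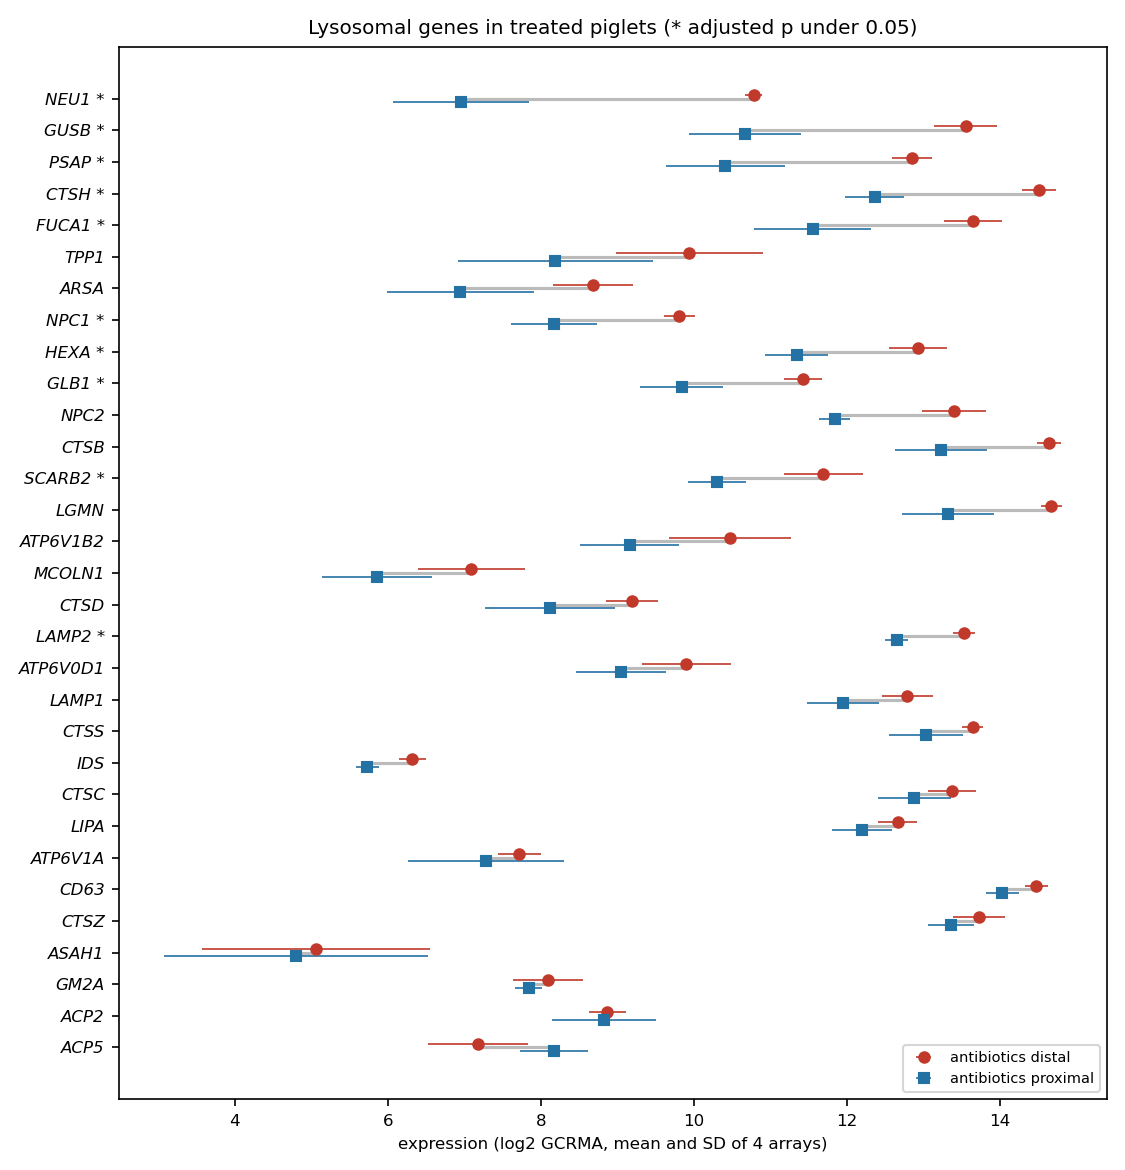
Mean and SD (n = 4) of the 31 lysosomal genes in treated distal (circles) and treated proximal tissue (squares), in log2 GCRMA units on the horizontal axis and ordered by their difference. The distal mean lay to the right for 30 genes, and the 10 marked with a star passed an adjusted p of 0.05.

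Transporters of ions and amino acids added single genes on the distal side. SLC26A3, the chloride and bicarbonate exchanger typical of ileum and colon, was at 10.88, 11.60, 10.90 and 11.72 in distal tissue, against 8.35, 3.72, 3.23 and 5.43 in proximal tissue. Piglet 86 had the highest proximal value, but the groups did not overlap, and the difference was 68.4-fold (6.10, SE 1.09, limma adjusted p = 0.00373). GUCA2A, which encodes guanylin, a peptide that drives fluid secretion, averaged 10.43 ± 0.34 in distal and 7.73 ± 0.81 in proximal tissue (SD, n = 4 each), 6.54-fold higher (limma adjusted p = 0.00242). SLC26A3 and GUCA2A were 2 of 3 measured genes in a list of large bowel epithelium. AQP8, the remaining member, went the other way, with 7.91 ± 0.19 in distal and 11.81 ± 0.78 in proximal tissue. Its difference of -3.9 did not pass (limma adjusted p = 0.123; 0.0385 with the fixed animal block). AQP1, a water channel of vessels, was lower, with a difference of -1.55 (limma adjusted p = 0.0243; 0.176 with the RNA integrity covariate and 0.114 with the fixed animal block), and passed in 4 of the 8 fits without a treated array. SLC1A1, the glutamate and aspartate transporter, averaged 11.58 ± 0.46 in distal and 8.57 ± 0.34 in proximal tissue, 8.1-fold higher (limma adjusted p = 4.61e-05), the 1 gene of 8 amino acid and peptide transporters to pass. SLC15A1, the peptide transporter, differed by 0.05. ASS1, which joins citrulline and aspartate on the way to arginine, averaged 11.97 ± 0.54 in distal and 8.80 ± 0.94 in proximal tissue, 9.03-fold higher (limma adjusted p = 0.00466), the 1 of 15 in its list. ASS1 had an adjusted p of 0.0637 in limma with the fixed animal block.

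Secreted defence genes went in both directions. SLPI, a protease inhibitor of the mucosa with a WAP domain, was at 15.14, 14.51, 14.65 and 14.60 in distal tissue, against 8.23, 6.82, 7.42 and 8.67 in proximal tissue. Both groups were tight and the difference was 123-fold (6.94, SE 0.44, limma adjusted p = 1.35e-07). DEFB1, an epithelial defensin, was at 9.22, 6.71, 6.96 and 8.07 in distal tissue, against 4.37, 4.37, 4.20 and 4.45 in proximal tissue, at least 6.68-fold higher (3.39, SE 0.55, limma adjusted p = 0.00188). LEAP2, first known as an antimicrobial peptide and also a blocker of the ghrelin receptor, was at 4.84, 6.18, 5.69 and 4.36 in distal tissue, against 12.29, 12.40, 11.69 and 12.95 in proximal tissue. That is 134-fold lower (-7.06, SE 1.28, limma adjusted p = 0.00395), and its second probe set was lower, with a difference of -7.18. DMBT1, a secreted protein that binds bacteria, was 4.36-fold lower (-2.12, limma adjusted p = 0.00285). Of 14 measured defence genes 2 were higher and 2 lower, with a median of -0.03. Of 5 measured goblet cell genes CLCA1 was higher by 1.17 and SPINK4 by 0.75 (limma adjusted p = 0.0301 and 0.0307), and each passed in 3 of the 8 fits without a treated array. With the RNA integrity covariate their adjusted p was 0.11 and 0.117, and SPINK4 had 0.17 with the fixed animal block.

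In the lists of interferon, complement and chemokine genes, those that passed were lower in distal tissue. GBP2, a guanylate-binding protein induced by interferon gamma, was at 5.08, 4.21, 5.96 and 4.54 in distal tissue, against 9.53, 10.03, 9.15 and 10.27 in proximal tissue, 27.8-fold lower (-4.80, SE 0.84, limma adjusted p = 0.00346). GBP1, its neighbour with no protein-coding gene between, was at 7.62, 7.21, 8.37 and 7.81 in distal tissue, against 10.49, 11.21, 12.03 and 11.25 in proximal tissue, 11.2-fold lower (-3.49, SE 0.50, limma adjusted p = 0.000743). Its other 2 probe sets were lower as well, at -2.60 and -4.56, though probes of the GBP genes may share signal. Of 37 measured genes of interferon response and antigen presentation 4 were lower, 0 higher and 27 had a lower mean, with a median of -0.52 (11 lower and 2 higher at an unadjusted p under 0.05 in limma). The remaining 2 were the immunoproteasome genes PSMB10 (-1.21, limma adjusted p = 0.0158; 0.122 with the fixed animal block) and PSMB8 (-1.03), the last at or near the dim level in both segments. B2M, the light chain of MHC class I, differed by 0.05 on a bright probe set, with means of 15.39 in distal and 15.34 in proximal tissue. Its other probe sets differed by -0.98 to 1.0, and none passed. CCL25, the chemokine that draws lymphocytes to the small bowel, averaged 9.28 ± 0.18 in distal and 11.95 ± 0.56 in proximal tissue (SD, n = 4 each), 6.33-fold lower (limma adjusted p = 0.00461). CXCL13, another chemokine gene, was higher by 3.59 without passing (limma adjusted p = 0.0783). With the random and the fixed animal block it passed (limma adjusted p = 0.0473 and 0.0494). Its second probe set differed by 1.66 and did not pass.

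Of 24 measured complement and coagulation genes 3 were lower in distal tissue and 0 higher, with a median of -0.41 (8 lower and 1 higher at an unadjusted p under 0.05 in limma). C1QC, a chain of the classical pathway's recognition molecule and a macrophage marker, was 5.5-fold lower (-2.46, limma adjusted p = 0.007). C9, of the membrane attack complex, was lower, with a difference of -1.50 (limma adjusted p = 0.012) and of -2.99 on its second probe set, and CD46, a complement regulator, with -1.44 (limma adjusted p = 0.0142). C9 and CD46 had an adjusted p of 0.0583 and 0.0649 under the RNA integrity covariate, and C9 had 0.143 with the fixed animal block. They passed in 6 and 7 of the 8 fits without a treated array, and the other 2 probe sets of CD46 (-1.56 and -1.35) did not pass. PTGS2, the inducible cyclooxygenase, was at 6.63, 7.61, 6.51 and 8.35 in distal tissue, against 3.27, 2.21, 3.25 and 4.33 in proximal tissue, at least 4.84-fold higher (4.01, SE 0.75, limma adjusted p = 0.00497). The counts for leukocyte markers were small. Of 7 measured lymphocyte genes 0 passed in limma, and 2 were lower at an unadjusted p under 0.05 (median -0.75, summed signal 236 to 1050 in distal and 510 to 888 in proximal tissue). Of 3 measured neutrophil genes ALOX5AP passed as lower (-1.21, limma adjusted p = 0.0336; 0.212 with the RNA integrity covariate, 0.109 with the fixed animal block, and past the test in 1 of the 8 fits without a treated array), and S100A9 was at 2.28 to 2.39 in distal tissue and 2.28 to 5.30 in proximal tissue.

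Structural cells of the gut wall differed little in their lists. Of 18 measured genes of the smooth muscle list 1, XIRP2, passed, and the median was -0.07. XIRP2 encodes a protein of striated muscle, and it passed the filter on the treated distal arrays alone. The defining genes ACTG2 (-0.15), CNN1 (-0.02), DES (0.06) and TAGLN (-0.58) did not pass, and the summed signal was 46600 to 59900 in distal and 41400 to 69000 in proximal tissue. Of 28 fibroblast and matrix genes 1 was lower (FBLN1, -1.07, limma adjusted p = 0.0274; 0.114 with the RNA integrity covariate, and passed in 3 of the 8 fits without a treated array), with a summed signal of 31600 to 56700 in distal and 35900 to 68900 in proximal tissue. Of 10 neuron and glia genes 2 were higher, BEX3 (1.59, limma adjusted p = 0.0126; 0.103 with the covariate) and GNB5 (2.06, limma adjusted p = 0.00164). The defining neuronal genes UCHL1 (-0.26), SNAP25 (-0.24), STMN2 (0.19) and the glial S100B (-0.22) did not pass. The summed signal of that list, 5370 to 5810 in distal and 2400 to 2950 in proximal tissue, did not overlap, but BEX3 alone gave 3800 to 4340 of it in distal and 1230 to 1480 in proximal tissue. Without BEX3 the sums were 1440 to 1790 in distal and 922 to 1620 in proximal tissue and overlapped. The pancreatic acinar list had 2 measured genes, of which 0 passed in limma, also at an unadjusted p under 0.05. None of 23 proliferation genes (median -0.30), 35 respiratory chain genes (median -0.11) or 22 genes of the ER stress and amino acid response (median 0.63) passed the limma test. At an unadjusted p under 0.05 these had 3 lower, 3 lower and 6 higher genes in that order. In the crypt and Wnt list JAG1, a Notch ligand, was higher by 1.70 and SFRP1, a Wnt antagonist, lower, with a difference of -1.57 (limma adjusted p = 0.0437 and 0.0483). They passed in 0 and 2 of the 8 fits that left out a treated array. The second probe set of SFRP1 differed by -0.80. The covariate gave JAG1 0.219 and SFRP1 0.106, and the fixed block gave SFRP1 0.193.

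Among the genes with the largest differences were a few outside these groups. TM4SF5, a tetraspan membrane protein gene, averaged 5.89 ± 0.82 in distal and 11.24 ± 0.48 in proximal tissue (SD, n = 4 each), 40.8-fold lower (-5.35, limma adjusted p = 0.000327), and its second probe set was lower, with a difference of -6.74. SRPX2, a secreted protein gene with sushi repeats, averaged 6.63 ± 0.27 in distal and 2.26 ± 0.18 in proximal tissue, at least 3.11-fold higher (4.38, limma adjusted p = 0.00359). LGALS2, a galectin gene, was higher by 0.98 (limma adjusted p = 0.0241), and CTH, which makes cysteine, was lower, with a difference of -1.39 (limma adjusted p = 0.03). With the RNA integrity covariate LGALS2 and CTH had an adjusted p of 0.154 and 0.134, with the fixed animal block 0.0976 and 0.0973, and they passed in 3 and 2 of the 8 fits without a treated array.

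Untreated piglets give the same segment contrast without antibiotics on 8 other arrays, although both contrasts share the filter and the spread, which come from all 16 arrays. There 42 of 11538 probe sets passed (0.364%), 37 higher (0.321%) and 5 lower (0.0433%) in distal tissue, and 922 had an unadjusted p under 0.05. Of the 364 probe sets that were higher in distal tissue of treated piglets 317 (87.1%) also had a higher distal mean in untreated piglets and 25 passed there. The median was 1.42 with antibiotics and 0.48 without. Of the 242 that were lower 196 (81.0%) had a lower distal mean in untreated piglets and 5 passed, with medians of -1.86 with antibiotics and -0.50 without. These sets were chosen by the treated arrays, so larger medians there follow in part from the choice. Of the 37 that were higher in untreated piglets 36 had the same sign with antibiotics and 25 passed, and all 5 that were lower passed. Within single animals the median of the 364 was 1.18, 1.54 and 1.62 in treated piglets 86, 87 and 95, and 0.42 to 0.54 in the 4 untreated piglets. That of the 242 was -2.0, -1.54 and -1.99 in the same treated piglets, and -0.47, -0.70 and -0.81 in untreated piglets 92, 89 and 88, while untreated piglet 83 had a median of 0.0.

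GATA4 and GCG, which mark position, and the defence gene SLPI had nearly equal segment differences with and without treatment. GATA4 differed by -3.06 with antibiotics and -3.09 without, GCG by 4.51 and 4.19, and SLPI by 6.94 and 6.31. The change of the segment difference did not pass for any of them (limma adjusted p = 0.996, 0.974 and 0.901). Other genes of position were less equal. FABP6 differed by 7.54 with antibiotics and 4.9 without, and MLN by -4.98 and -3.27, and neither change passed (limma adjusted p = 0.821 and 0.882). TMPRSS15 differed by -9.17 with antibiotics and by -4.25 without, where the proximal arrays ranged from 6.60 to 12.82. APOM differed by -7.31 and -1.39, with untreated proximal values of 4.14, 12.81, 12.64 and 3.40, and CYP3A29 by -5.61 and -0.29. The wide spread of these genes over untreated proximal arrays is part of the fit, and the change did not pass (limma adjusted p = 0.339, 0.622 and 0.281).

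**Figure D4:**
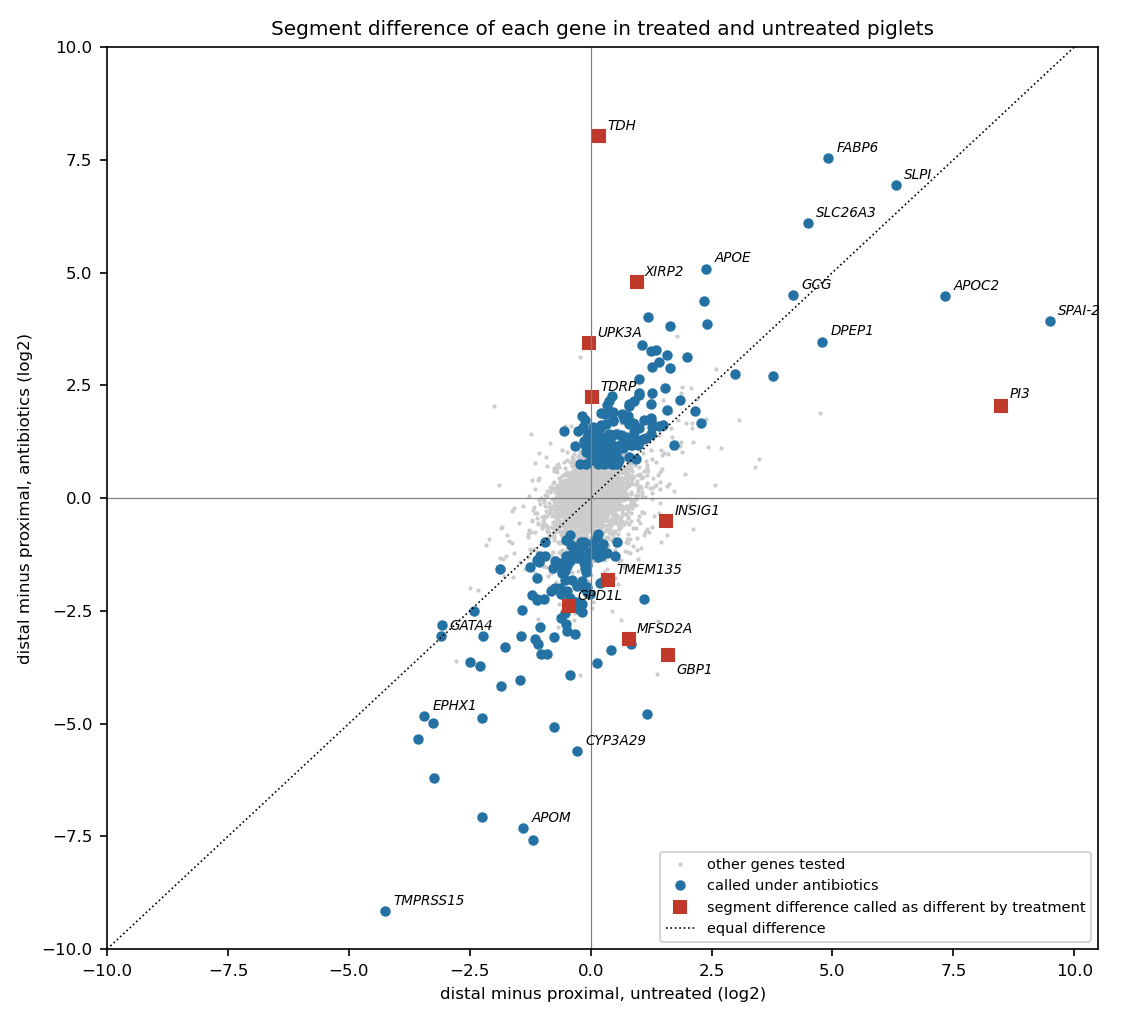
Distal minus proximal difference of each of the 4684 genes (log2) in treated piglets (vertical axis) and untreated piglets (horizontal axis). Circles passed in treated piglets, squares are the 10 genes whose segment difference itself differed by treatment, and the dotted line marks equal differences. TDH lies at 8.02 and 0.18, PI3 at 2.03 and 8.49.

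The segment difference itself changed with treatment for 22 of 11538 probe sets (0.191%), 12 upwards (0.104%) and 10 downwards (0.0867%), and 764 had an unadjusted p under 0.05. As genes these were 10 of 4684 (0.213%). The largest was TDH, the mitochondrial L-threonine dehydrogenase, which oxidises threonine. It was at 10.40, 9.73, 10.62 and 9.92 on the treated distal arrays, and at the floor of 2.14 on all 4 treated proximal arrays. It was at 2.14, 2.14, 2.86 and 2.14 on the untreated distal arrays and at 2.14 on the untreated proximal ones. All treated distal arrays were therefore high and the 12 others at or near the floor. In treated piglets the gene was at least 35.9-fold higher in distal tissue (8.02, SE 0.22, limma adjusted p = 1.99e-12), and the change of the segment difference was 7.84 (limma adjusted p = 5.8e-10). TDH passed the filter through the treated distal arrays alone, and the arrays at the floor narrowed its SE. Its p-values are therefore no separate support. TDH and GATA4 are near neighbours, with 2 protein-coding genes between them.

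UPK3A, a uroplakin of bladder lining, was at 7.48, 6.86, 7.09 and 7.12 in treated distal tissue, against 3.70 to 3.72 in treated proximal tissue and 3.70 to 5.10 on the untreated arrays. XIRP2, an actin-binding protein of striated muscle, was at 6.33, 8.28, 8.09 and 8.18 in treated distal tissue, against 2.70 to 3.13 in treated proximal tissue, 2.84 to 4.67 in untreated distal and 2.75 to 3.13 in untreated proximal tissue. Like TDH, both were above the dim level on the treated distal arrays and on few or no others. A probe set was tested if it exceeded 5 on at least 4 arrays, and TDH, XIRP2 and TDRP did so on the 4 treated distal arrays alone. They thus entered the test only through the group in which they were high. For 4 of the 276 genes that passed, no other group held an array above 5. Further genes had other arrays above 5, but too few to be tested without the treated group in which they were high. For distal tissue these included UPK3A, XPNPEP2, SRPX2 and GNB5. For proximal tissue they included GATA4, MLN, GHRL, AMBP, TRPV6, MT1A, CYP2C32 and CYP27A1. The p-values of all these genes are likewise no separate support. The segment difference was at least 4.39-fold for UPK3A and at least 6.59-fold for XIRP2, and its change with treatment was 3.46 and 3.84 (limma adjusted p = 0.00202 and 0.0179). TDRP, a testis-enriched gene, averaged 6.55 ± 0.49 in treated distal and 4.31 ± 0.42 in treated proximal tissue (SD, n = 4 each), with 3.86 and 3.84 in untreated distal and proximal tissue. The change was 2.22 (limma adjusted p = 0.0456). SLC1A1 showed a change of 2.30 on its second probe set (limma adjusted p = 0.0301) and one of 1.61 on the probe set used above, which did not pass (limma adjusted p = 0.305).

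In the other direction, PI3, the protease inhibitor elafin, was at 3.40, 3.71, 8.13 and 3.13 in treated distal tissue, against 2.55 to 2.60 in treated proximal tissue, a difference that did not pass (2.03, limma adjusted p = 0.18). In untreated piglets it was at 10.07 to 11.89 in distal and 2.15 to 2.60 in proximal tissue (8.49, limma adjusted p = 1.68e-05). Among treated distal arrays that of piglet 87 alone lay above the dim level. PI3 was thus tested only through the untreated distal arrays, in which it was high. The change of the segment difference was -6.46 (limma adjusted p = 0.0277). SPAI-2, its adjacent relative in the trappin family, was at 8.19, 2.31, 7.30 and 6.71 in treated distal and 2.14 to 2.26 in treated proximal tissue, at least 2.19-fold higher (3.93, limma adjusted p = 0.0109). Its difference was 9.50 without treatment, and the change did not pass (-5.57, limma adjusted p = 0.0789). With the RNA integrity covariate the treated difference of SPAI-2 had an adjusted p of 0.0562, and with the fixed animal block 0.0551. SLPI lies in the same cluster, 1 protein-coding gene away from SPAI-2, and its 2 close relatives may share signal with each other.

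GBP1 differed by -3.49 with antibiotics and by 1.60 without, a change of -5.09 (limma adjusted p = 0.00486). It was lower in distal tissue in each of the 3 treated animals with both segments, by -3.28, -2.84 and -4.22, and higher in each of the 4 untreated animals, by 0.47 to 2.81. MFSD2A, a transporter of lysophospholipids that carry omega-3 fatty acids, averaged 5.68 ± 0.83 in treated distal and 8.80 ± 0.72 in treated proximal tissue (SD, n = 4 each), against 7.83 and 7.05 in untreated distal and proximal tissue. Its change was -3.91 (limma adjusted p = 0.0363). GPD1L, a relative of glycerol-3-phosphate dehydrogenase, averaged 11.20 ± 0.18 in treated distal and 13.60 ± 0.45 in treated proximal tissue, 5.27-fold lower (limma adjusted p = 2.66e-05). Its change was -1.95 (limma adjusted p = 0.0301). TMEM135, a peroxisome-associated membrane protein gene, was lower, with a difference of -1.82 in treated distal tissue (limma adjusted p = 0.000916), with a change of -2.18 (limma adjusted p = 0.0281). INSIG1, the sterol sensor that restrains cholesterol synthesis, differed by -0.52 with antibiotics (limma adjusted p = 0.362) and by 1.56 without (limma adjusted p = 0.0142), a change of -2.07 (limma adjusted p = 0.0363).

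Of the 10 genes TDH, XIRP2 and GBP1 passed with the animal as a fixed block, and the other 7 had an adjusted p of 0.0772 to 0.148 there in limma. With the RNA integrity covariate 6 passed, while TDRP, TMEM135, GPD1L and MFSD2A had 0.0569 to 0.0859. With no filter on dim probe sets 3 passed. TDH, GBP1 and UPK3A passed in each fit that left out 1 array, and between 3 and 10 of the genes did so in all. The number of probe sets whose segment difference changed with treatment was 39 with the animal as a random block and 9 with it as a fixed block. It lay between 10 and 18 when a treated array was left out and between 10 and 44 when an untreated array was. The low values of 10 or 11 came without proximal arrays 86 or 95 or distal arrays 86 or 95 of treated piglets, and without proximal array 83 or distal arrays 92 or 83 of untreated ones. Without untreated proximal array 92 the count was 14, and without untreated proximal array 88 it was 44.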

How the data were processed

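Total RNA was measured on an Affymetrix porcine array. Per the labels' protocols, RNA was purified from Trizol on RNeasy columns and the 3′ IVT Express kit was used for labelling. The authors deposited log2 GCRMA values, 1 per probe set and array, with a floor at 2.14, and 39.7% of the values lay under 2.5, so that the size of a difference reaching the floor is poorly determined. The submitters' processing notes name GCOS 1.2, GCRMA and limma, without order, settings or further versions. Arrays carry no read depth, and their number limits the precision. No scan date or litter is given per array in the sources used here.

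Of 24123 probe sets 124 controls were left out, and the platform annotation gave 10069 of the rest a single gene, 198 several genes and 13732 no gene. Probe sets above log2 5 on at least 4 of 16 arrays were tested (11538). A gene is read from whichever of its 1-gene probe sets had the highest overall mean. The means of 4 groups of 4 arrays were estimated in a single limma 3.58.1 model (R 4.3.3, lmFit and eBayes), with a threshold of 0.05 on p-values adjusted by Benjamini-Hochberg across the 11538 tests. Plots were made in Python 3.11.15 with matplotlib 3.10.9. The fit was tested on simulated data. Sscrofa11.1 gene order was used for neighbours, and no coordinates are given because the files name no build.

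The animal number pairs the segments of 7 animals. Residuals of the paired arrays correlated at 0.0293, 0.18 and 0.483 in treated piglets 86, 87 and 95 and at 0.0849 to 0.526 in untreated ones, and the random block (statmod 1.5.0) had a correlation of 0.172. The main fit has no block.

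Genes named are the 15 highest and the 15 lowest differences past the threshold, up to 5 called members of each list by moderated t, the called changes of the segment difference, and 39 genes chosen in advance (24 measured, 1 dim, 14 without a probe set annotated here). The text names only some of the last. Other genes, among them M6PR, HEXA and the list members given as not passing, were named after their values were seen. The comparison, the members and the 39 gene lists (548 of 1353 genes measured) were chosen with earlier results of these data known. Alternatives were array quality weights, no filter or one at log2 7, repeated quantile normalization, array medians set equal, eBayes with trend and robust, the mean of a gene's probe sets, a threshold of 0.10, the treated arrays alone, the animals with both segments alone, the animal as a fixed or random block, the 5′ minus 3′ covariate, and the omission of each array. Leaving out untreated arrays, and every alternative for untreated piglets, were added after seeing the data.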

Additional observations from a re-analysis of the deposited data

Results flagged for a closer look

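The distal to proximal difference itself changed with treatment for 10 named genes. The difference under antibiotics minus that in untreated piglets was 7.84 for TDH, 3.84 for XIRP2, 3.46 for UPK3A and 2.22 for TDRP. It was -6.46 for PI3, -5.09 for GBP1, -3.91 for MFSD2A, -2.18 for TMEM135, -2.07 for INSIG1 and -1.95 for GPD1L (log2, all past an adjusted p of 0.05 in limma). TDH, XIRP2 and TDRP exceeded 5 on the 4 treated distal arrays alone, and UPK3A on these and 1 untreated proximal array. PI3 exceeded 5 on the 4 untreated distal arrays and 1 treated distal array. Each of these genes was tested only through the group in which it was high, so their p-values are no separate support.

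A single array stood apart from the other 3 of its group, by a test of its gap against the range of the group, in 19 of 248 groups of treated arrays examined over 137 genes. Chance alone flags about 1 in 20 groups. In distal tissue FABP6 was lowest on array 86 (7.97, the next 10.27), XIRP2 on array 85 (6.33, the next 8.09) and ELOVL6 on array 85 (4.93, the next 7.37). PI3 was highest on distal array 87 (8.13, the next 3.71), as were AQP1 (7.98) and STMN2 (10.06). GSTO1 (11.16) and C1QC (5.48) were lowest on that array. Distal array 95 was highest for SLC1A1 (12.27), CLCN5 (8.55) and APOB (15.81) and lowest for SCPEP1 (12.05) and LGALS2 (13.81). In proximal tissue array 95 was highest for PCK1 (10.33, the next 7.32) and CYP2C42 (10.94). Array 98 was lowest for CYP27A1 (4.61, the next 7.52) and SLC2A5 (7.58), and array 87 for ACTG2 (13.56) and CTH (11.45). Of the 19, 5 lay more than 4-fold from the next array, those of FABP6, PI3, PCK1, ELOVL6 and CYP27A1.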

How the results depend on the processing

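The count of probe sets that differed between the segments of treated piglets (606) was 3008 with array quality weights, 378 with the 5′ minus 3′ covariate, and 288 genes with the mean of a gene's probe sets. The higher count (364) was 1675 with weights and 160 genes by means. The lower count (242) was 145 with no filter, 1333 with weights, 128 genes by means, 156 over the animals with both segments, 116 with the covariate and 372 at an adjusted p of 0.10. Leaving out 1 treated array gave 353 to 638 in all, 221 to 400 higher and 131 to 279 lower, and leaving out 1 untreated array gave 514 to 680, 298 to 403 and 216 to 277. With the animal as a random replicate block 792 passed, all 606 among them, and with a fixed block 457, of which 341 were among the 606. Calls of named genes that the fixed block changed are given beside them. The segment difference that changed with treatment (22 probe sets) became 11 with no filter, 210 with weights, 14 over the animals with both segments, 39 and 9 with the random and the fixed replicate block, and 38 at an adjusted p of 0.10, with 10 to 18 and 10 to 44 when a treated or an untreated array was left out. The untreated comparison (42) gave 80 with weights, 17 genes by means, 74 with the random replicate block, 80 with the covariate and 69 at an adjusted p of 0.10, with 36 to 49 and 25 to 77 when a treated or an untreated array was left out. Without untreated proximal arrays 88 and 89 it was 77 and 72, and without untreated distal array 92 it was 25. The median of the 3 bile acid genes was 3.91 with the filter at 7 and 1.55 with the covariate, and 1088 of 1090 recomputed list medians stayed within the spread. No called named gene changed sign. Of 108 such genes 54 passed under every alternative, each treated array left out included. The cause of these shifts was not tested, except that the mean of probe sets and the fits with fewer arrays hold fewer features or samples. Signal near the floor limits the size of differences in dim genes.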

Other observations

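The distal side of treated piglets was also higher for the machinery that supplies lysosomes, in genes chosen after their values were seen and grouped by symbol, so that no count here is a test. All 4 measured genes of mannose-6-phosphate tagging and its receptor passed, with a median of 2.0 with antibiotics and 0.76 without. GNPTAB and GNPTG, subunits of the enzyme that adds the tag, were higher by 1.73 and 2.33 (limma adjusted p = 0.00321 and 0.000385), NAGPA, which uncovers it, by 2.28 (limma adjusted p = 0.0051), and M6PR, the receptor that carries tagged enzymes, by 1.15 (limma adjusted p = 0.0336). GNPTG was at 7.86, 7.54, 7.45 and 8.32 on the distal arrays, against 5.66, 5.06, 5.93 and 5.21 on the proximal arrays. Of 12 measured subunits of the proton pump that acidifies lysosomes 4 passed as higher and 0 as lower, among them ATP6V1H (1.18, limma adjusted p = 0.00614) and ATP6V1C1 (1.13, limma adjusted p = 0.00836). The median of the 12 was 0.86 with antibiotics and 0.59 without. Of 17 measured VPS genes of membrane traffic VPS11, VPS33A and VPS41 passed, by 1.32, 1.18 and 1.12. The median of the 17 was 0.46 with antibiotics and 0.09 without. SCPEP1, a serine carboxypeptidase gene, was higher by 3.12 and by 3.53 on its second probe set, AGA, which splits glycoasparagines, by 1.64, and CLCN5, an endosomal chloride exchanger gene, by 1.93. DAB2, an endocytic adaptor gene, differed by 2.47 without passing (limma adjusted p = 0.201). M6PR passed in 1 and VPS41 and AGA in 3 each of the 8 fits without a treated array, CLCN5 in 5. With the fixed replicate block M6PR, VPS41, CLCN5 and ATP6V1C1 had an adjusted p of 0.117, 0.117, 0.0542 and 0.0561 in limma, and VPS11 had 0.0524 with the RNA integrity covariate.

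Of 13 measured cytochrome P450 genes 7 passed as lower in distal tissue and 0 as higher, with a median of -2.73 with antibiotics and -0.51 without. Besides those above these held CYP2C42 (-3.31), CYP3A39 (-2.78) and CYP39A1 (-1.99), the last in 0 of the 8 fits without a treated array. With the RNA integrity covariate these 3 had an adjusted p of 0.0525, 0.0758 and 0.254 in limma, and with the fixed replicate block CYP3A39 had 0.0877 and CYP39A1 0.0804. POR, the reductase that feeds electrons to microsomal P450 enzymes, was at 6.46, 6.67, 7.25 and 6.30 on the distal arrays, against 9.98, 8.94, 9.03 and 8.11 on the proximal arrays, 5.08-fold lower (-2.35, limma adjusted p = 0.00346). Over 69 measured solute carrier genes 4 were higher and 3 lower, with a median of 0.11. Among all genes 3.33% were higher and 2.56% lower.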
